A study of Homo sapiens with 18 samples.

Results

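The genes described here encode collagens, laminins and the proteins that link, anchor or cross-link them in the extracellular matrix. They are the transcript clusters of the array table whose single gene symbol begins with a collagen, laminin, nidogen, fibulin, hemicentin, Fraser complex, matrilin, emilin, glypican, syndecan or lysyl oxidase name, with COL12A1 and LOXL2 left out. There are 76 of them among 14232 genes with a single symbol and 22011 transcript clusters in all, each with 1 transcript cluster. The symbol of 1 member, COL18A1-AS1, is that of an antisense RNA and of no matrix protein. Another 10 symbols, among them COL18A1, HSPG2 and GPC1, share a transcript cluster with other symbols and are not analysed here. Of these, MATN1-AS1 is again that of an antisense RNA.

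The cells were U251-MG, an established human astrocytoma line, although the labels give brain as the source of each sample. They were given 500 µM arsenite, which causes oxidative stress, halts translation and brings on stress granules, or DMSO, and RNA was collected 30 min later. RNA was taken by immunoprecipitation (RIP) with an antibody to TIAR, which the labels call Tial after its gene TIAL1, by RIP with an antibody to G3BP1, or as input without a RIP. TIAR and G3BP1 are RNA-binding proteins of stress granules. The 6 groups are therefore the TIAR RIP with arsenite, the TIAR RIP with DMSO, the G3BP1 RIP with arsenite, the G3BP1 RIP with DMSO, input with arsenite and input with DMSO, each with 3 biological replicates on 1 exon array each (18 arrays).

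Matrix proteins are secreted through the endoplasmic reticulum, where collagen chains are hydroxylated and folded into triple helices and laminin chains are joined as trimers. Basement membranes are sheets of laminin and type IV collagen held together by nidogens, while fibrillar collagens form the fibres of connective tissue. Glypicans and syndecans carry heparan sulfate at the cell surface, and glioma cells are known to make matrix proteins themselves.

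Values are log2 signals from the array, so a difference of 1 is a 2-fold change. A RIP signal gives the make-up of the recovered RNA and not the amount recovered, no RIP with a control antibody was analysed here, and levels were compared within a gene and not between genes. In these bulk samples, fewer cells with an RNA and less RNA per cell cannot be told apart. Array medians ran from 7.73 to 8.07, and arrays correlated with the others of their group at a mean r of 0.980 to 0.995. Replicate 1 of input with arsenite and replicate 3 of the G3BP1 RIP with DMSO stood apart, each with a mean r of 0.980 and the lowest upper quartile of its group. Of 9 astrocyte and glioma markers, VIM at 13.19 ± 0.05 and CD44 at 12.07 ± 0.05 (SD, n = 3) were bright in input with arsenite, GFAP was at 8.36 ± 0.06, and S100B at 4.83 ± 0.08 and AQP4 at 5.05 ± 0.04 were low. Of 17 markers of endothelium, fibroblasts and pericytes, epithelium and blood cells, 13 lay below the median of all transcript clusters there, among them PECAM1 at 5.38 ± 0.23, DCN at 4.62 ± 0.07, EPCAM at 3.39 ± 0.12 and PTPRC at 3.77 ± 0.11. The 4 above it were the keratins KRT18 at 11.07 ± 0.04 and KRT19 at 8.56 ± 0.16, CD68 of macrophages at 9.62 ± 0.03 and CLDN5 of endothelium at 8.44 ± 0.08. With arsenite CD68 rose, by 1.08 ± 0.10 in the TIAR RIP, 0.83 ± 0.10 in the G3BP1 RIP and 0.36 ± 0.10 in input (SE), as did KRT18 in the TIAR RIP, by 0.51 ± 0.13, and CD3E in input, by 0.70 ± 0.12. The mean of the 4 blood markers ran from 6.32 to 6.45 with arsenite and 6.10 to 6.15 with DMSO in TIAR RIPs, and from 6.34 to 6.39 with arsenite and 5.99 to 6.08 with DMSO in input, and their part in the results was not tested. TIAL1 mRNA, which encodes the target of the first antibody, averaged 9.31 ± 0.05 in TIAR RIPs with arsenite and 10.04 ± 0.25 in input with arsenite.

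Of the 76 members, 40 had a mean signal above the median of all transcript clusters, 7.94, and 36 did not. Across 12 comparisons, 53 members were called at least once at an adjusted p under 0.05 and 23 were not called in any. The group of 23 holds 18 of the dimmer members, such as COL2A1, COL10A1 and COL4A3, and 5 of the brighter ones.

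With arsenite, matrix genes that changed mostly rose, in both RIPs and in total RNA. In the TIAR RIP, 21 members rose, led by the laminin chain LAMB1 at 1.23 ± 0.13 (SE), and SDC3 fell. Those counts are 27.6% and 1.32% of the members, beside 6.15% of all transcript clusters called higher and 5.71% called lower in that comparison. In the G3BP1 RIP, 21 members were called and each was higher, led by the Fraser complex gene FRAS1 at 1.25 ± 0.15, beside 10.4% of all transcript clusters called higher and 4.08% called lower. In input, 13 members rose, led by the linker NID1 at 0.82 ± 0.10, and SDC3 fell. There the general direction was the opposite, with 2.52% of all transcript clusters called higher and 11.2% called lower. The median difference of the members was 0.06, 0.08 and 0.12 in the TIAR RIP, the G3BP1 RIP and input, and that of all transcript clusters was -0.0035, 0.01 and -0.03. With both arrays that stood apart left out, 24 members rose and 2 fell in input, whereas a fit on the input arrays alone called 5. Shares of all transcript clusters in those fits are not given here, so these counts are not set against them.

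The members were also read against transcript clusters of like signal. Above the median signal, 19 of 40 members rose in the TIAR RIP, where 11.5% of all transcript clusters above it did. Among G3BP1 RIPs it was 17 of 40 members, where 18.2% of those transcript clusters rose. In input it was 13 of 40 members, where 3.48% rose and 20.4% fell. Genes that rose in all 3 RNA samples were LAMB1, LAMB2 and LAMA5, the linker NID1, COL1A2, COL14A1, FBLN1 and EFEMP1. These 8 genes are 38.1% of the members that rose in each RIP and 61.5% of those that rose in input. The like overlap over all transcript clusters was not counted. In a fit on the input arrays alone, genes no longer called in input included LAMB1, EFEMP1 and COL14A1, at adjusted p of 0.069, 0.053 and 0.10 (limma).

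**Figure D1:**
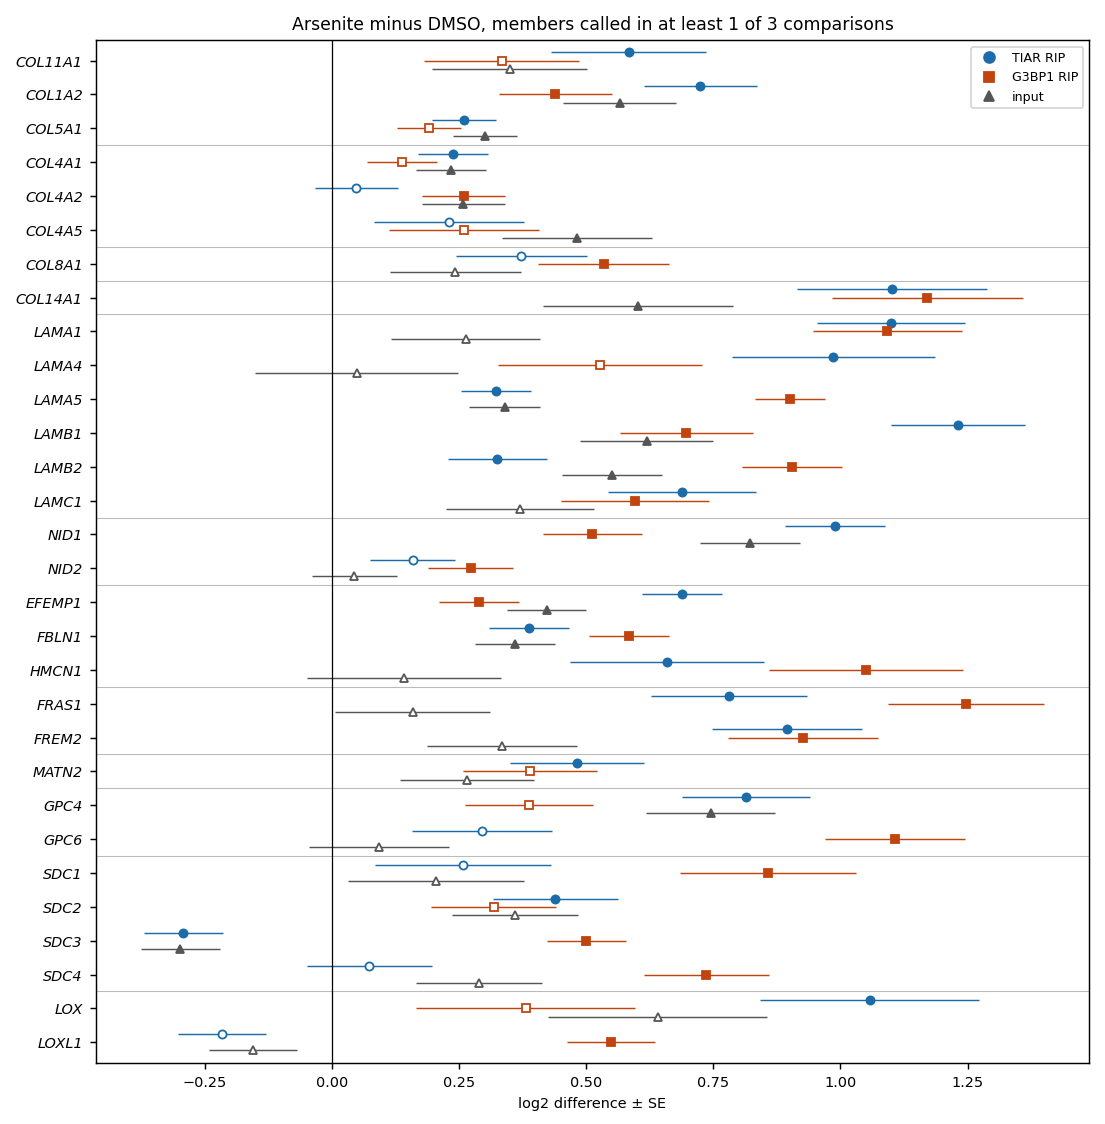
Log2 difference of arsenite minus DMSO with its standard error (horizontal axis) for the 30 members called in at least 1 of 3 RNA samples, grouped by role (vertical axis). Circles stand for the TIAR RIP, squares for the G3BP1 RIP and triangles for input, and filled symbols were called. Most filled symbols lie right of 0, SDC3 lies on both sides, and GPC6, HMCN1 and FRAS1 are filled in a RIP but not in input.

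**Figure D2:**
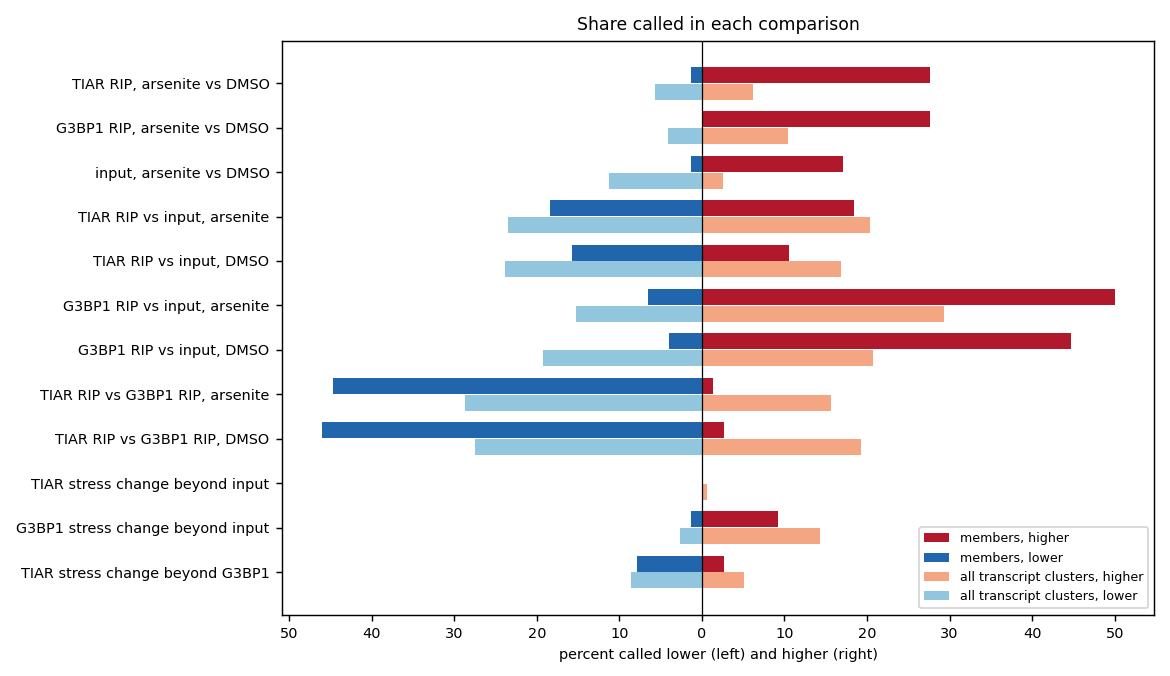
Percent of the 76 members (dark bars) and of all 22011 transcript clusters (pale bars) called higher, to the right, and lower, to the left, in each of 12 comparisons. In input with arsenite against DMSO the dark bars point right and the pale bars left. In both comparisons of the G3BP1 RIP with input, about 45 to 50 percent of members lie to the right.

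Start-site regions are shown for members that rose together in input with arsenite. They are the bases between the starts of COL4A1 and COL4A2, neighbouring genes for the main chains of type IV collagen, and the 250 bases before the starts of NID1 and LAMB1, in the RefSeq annotation on GRCh38.p14. Genes were picked for display after their values were seen. The strands are given 5′ to 3′ in the direction of COL4A2, NID1 and LAMB1, and capitals mark the GC box GGGCGG and the box CCAAT, on either strand.
COL4A1 and COL4A2, chr13:110307158-110307283, plus strand: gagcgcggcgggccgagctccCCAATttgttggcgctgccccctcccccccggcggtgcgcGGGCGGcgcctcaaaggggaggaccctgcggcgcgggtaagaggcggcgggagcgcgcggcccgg
NID1, chr1:236065091-236065340, minus strand: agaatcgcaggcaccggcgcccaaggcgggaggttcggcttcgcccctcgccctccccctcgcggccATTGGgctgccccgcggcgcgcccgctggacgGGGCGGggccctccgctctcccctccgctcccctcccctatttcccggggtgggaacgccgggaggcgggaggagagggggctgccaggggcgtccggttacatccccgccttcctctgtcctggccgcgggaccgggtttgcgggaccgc
LAMB1, chr7:108003162-108003411, minus strand: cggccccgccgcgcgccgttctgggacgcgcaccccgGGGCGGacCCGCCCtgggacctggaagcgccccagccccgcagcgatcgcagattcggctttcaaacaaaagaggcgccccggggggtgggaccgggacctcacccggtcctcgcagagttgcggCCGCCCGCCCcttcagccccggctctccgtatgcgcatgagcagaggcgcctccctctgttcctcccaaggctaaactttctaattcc
The collagen interval and NID1 hold 1 GC box and 1 CCAAT box each, and LAMB1 holds 4 GC boxes, of which the last pair overlap. No GC box overlaps a CCAAT box in these 3 sequences. RefSeq gave such a region for 56 members. On either strand the GC box was in 36 of these 56 (64.3%) and in 42.3% of 27305 regions of the same length over all genes. It was in 9 of 10 members that rose in input with arsenite. Of members higher in the G3BP1 RIP than in input with arsenite, 21 of 27 (77.8%) had it. COL4A1 and COL4A2, both among the 10, share the interval above, so its GC box counts for each. The regions over all genes were not matched for signal. The CCAAT box was in 18 of 56 members (32.1%) and 33.0% of all regions. TGACNNNGC, the core of the antioxidant response element, was in 5 of 56 members (8.93%) and 11.03% of all regions. These matches describe letters in a window, and binding was not measured.

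Relative to input, more matrix mRNAs were higher than lower in the G3BP1 RIP. In the TIAR RIP, on the deposited scale, their shares called were no larger than those of all transcript clusters. With arsenite, 14 members were higher and 14 lower in the TIAR RIP than in input, led by the glypican GPC6 at 2.20 ± 0.14 and the fibulin FBLN2 at -1.001 ± 0.14 (SE). Each count is 18.4% of the members, and over all transcript clusters 43.8% were called there, 20.3% higher and 23.5% lower. With DMSO, 8 members (10.5%) were higher and 12 (15.8%) lower in the TIAR RIP than in input, beside 16.8% and 23.8% of all transcript clusters (40.6% in either direction). In the G3BP1 RIP with arsenite, 38 members were higher and 5 lower than in input, beside 29.3% and 15.2% of all transcript clusters (44.4% in either direction). With DMSO those counts were 34 and 3, beside 20.7% and 19.2% of all transcript clusters (39.8% in either direction). The same 33 members were higher in the G3BP1 RIP with both treatments, which is 86.8% of those called with arsenite and 97.1% of those called with DMSO. This overlap was not counted over all transcript clusters, so it is not shown to be particular to the members.

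The scale of the RIPs against input moved with the normalization. Centring each array on its median left the G3BP1 counts with arsenite at 32 higher and 8 lower, and gave 19 higher and 9 lower for the TIAR RIP with arsenite and 19 higher and 4 lower for the TIAR RIP with DMSO. Quantile normalization gave 17 higher and 10 lower for the TIAR RIP with arsenite and 17 higher and 6 lower with DMSO. Both scalings also moved all transcript clusters. For the TIAR RIP against input, centring moved their median by 0.06 with arsenite and 0.17 with DMSO. Quantile normalization moved it by 0.06 and 0.12. Shares of all transcript clusters called under these scalings are not given here, so the counts are not set against them. Above the median signal, 28 of 40 members were higher in the G3BP1 RIP with arsenite than in input, where 46.8% of all transcript clusters above it were, and the median difference was 0.77 in those members and 0.30 in those transcript clusters.

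**Figure D3:**
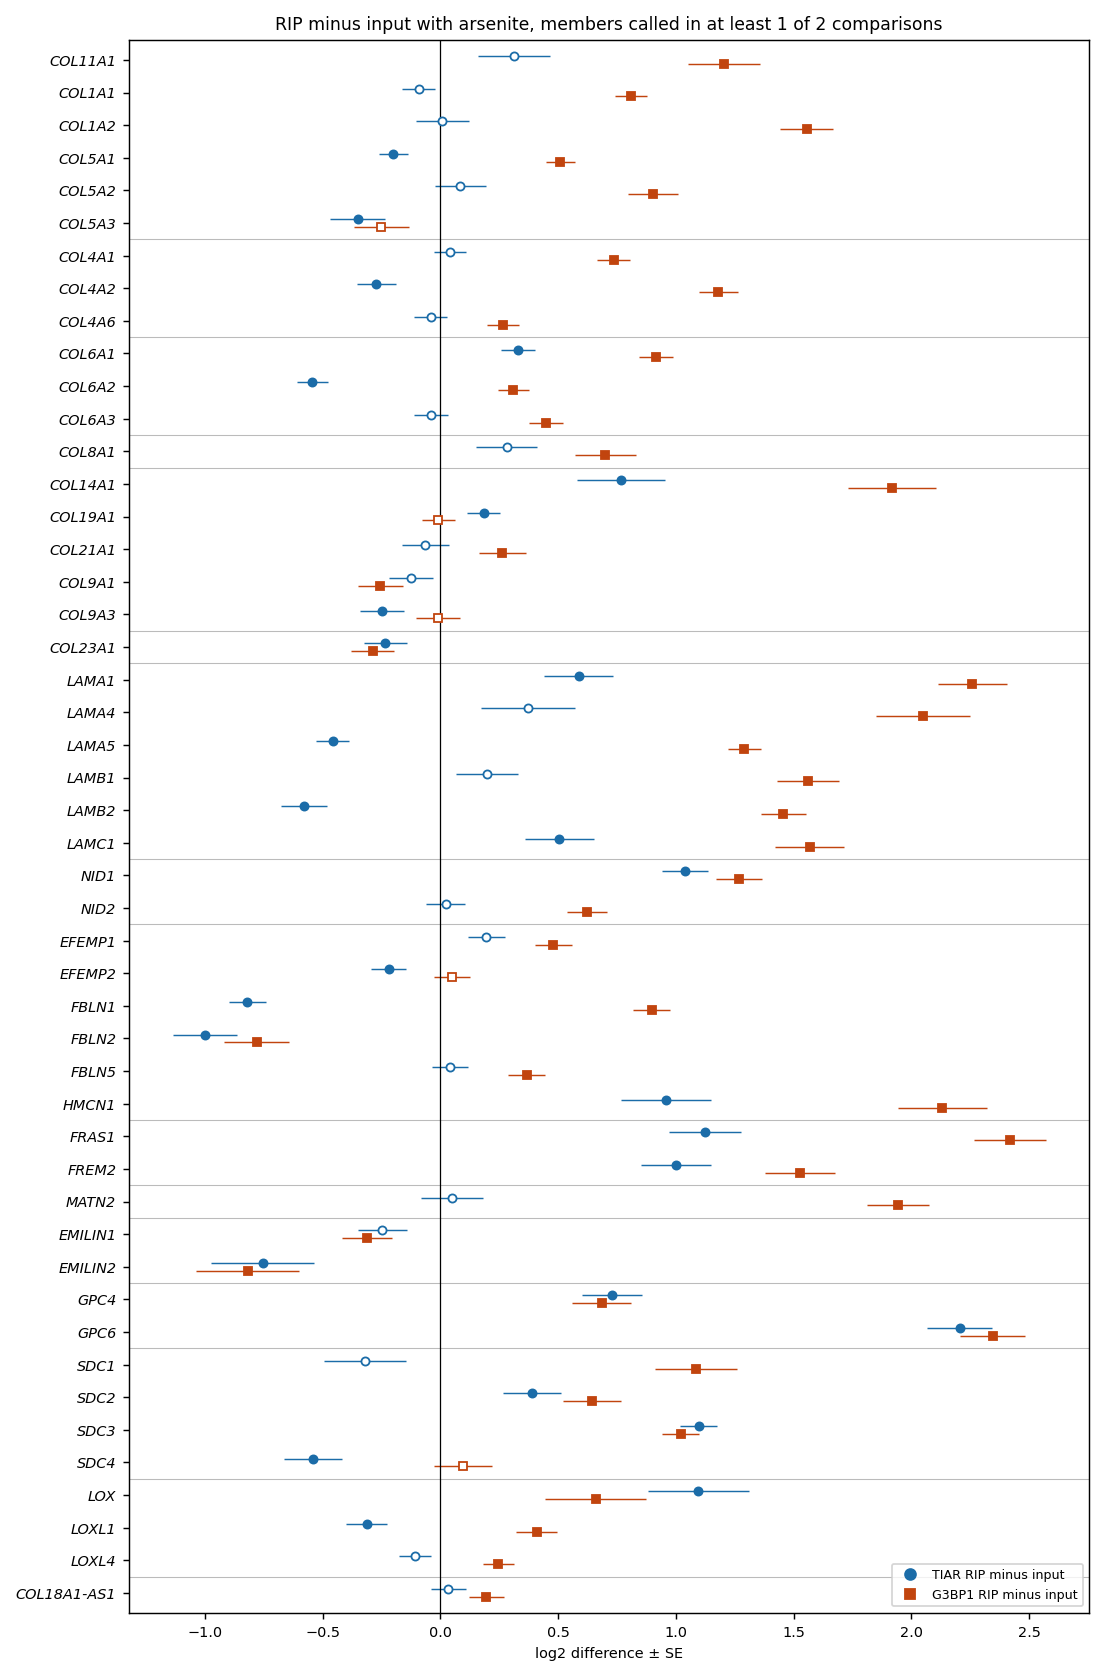
Log2 difference of RIP minus input with arsenite and its standard error (horizontal axis) for the 48 members called in at least 1 of the 2 comparisons (vertical axis, grouped by role). Circles stand for the TIAR RIP and squares for the G3BP1 RIP, and filled symbols were called. LAMA5 and LAMB2 lie right of 0 in the G3BP1 RIP and left of it in the TIAR RIP, whereas GPC6, GPC4 and SDC3 lie right in both.

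Set directly against each other, the RIPs differed mostly in one direction, with matrix mRNAs lower in the TIAR RIP than in the G3BP1 RIP. With arsenite 34 members were lower and 1, COL19A1, was higher in the TIAR RIP, beside 28.7% and 15.6% of all transcript clusters (44.3% in either direction). With DMSO 35 were lower and 2, SDC3 and GPC6, were higher, beside 27.5% and 19.3% of all transcript clusters (46.8% in either direction). Of the 40 members above the median signal, 23 were lower with arsenite, beside 45.1% of all transcript clusters above it. With DMSO 25 of these 40 members were lower, beside 42.8%. The differences of lower members were led by LAMB2 at -2.03 ± 0.10 with arsenite and by LAMA4 at -2.13 ± 0.20 with DMSO (SE). Centring on medians gave 26 lower and 7 higher with arsenite and 26 lower and 5 higher with DMSO, and quantile normalization gave 30 lower and 4 higher with arsenite and 31 lower and 3 higher with DMSO. Shares of all transcript clusters under these scalings are not given here.

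Among 10 fibrillar collagen genes, whose products form the fibres of connective tissue, 3 rose with arsenite in the TIAR RIP, 1 in the G3BP1 RIP and 2 in input. For this and later roles, the shares of all transcript clusters called higher were 6.15%, 10.4% and 2.52% in those RNA samples. The fibrillar count in the G3BP1 RIP is near that share, with a median difference of -0.05. COL1A2, a chain of type I collagen, was called in each RNA sample, at 0.72 ± 0.11 in the TIAR RIP, 0.44 ± 0.11 in the G3BP1 RIP and 0.57 ± 0.11 in input (SE). With arsenite it averaged 9.24 ± 0.15 in TIAR RIPs, 10.78 ± 0.06 in G3BP1 RIPs and 9.23 ± 0.13 in input (SD, n = 3). It was thus 2.94-fold higher in the G3BP1 RIP than in input, while its TIAR RIP difference from input, 0.01 ± 0.11, was not called. COL1A1, the other chain of the same collagen, averaged 9.31 ± 0.05 in G3BP1 RIPs with arsenite and 9.52 ± 0.09 with DMSO, and that difference, -0.20 ± 0.07, was not called. Both were higher in the G3BP1 RIP than in input with either treatment, COL1A1 by 0.81 ± 0.07 with arsenite. COL2A1, COL3A1 and COL11A2 were never called.

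Of 6 type IV collagen genes, 3 rose in input with arsenite, the neighbours COL4A1 at 0.23 ± 0.07 and COL4A2 at 0.26 ± 0.08, and COL4A5 at 0.48 ± 0.15 (SE). COL4A1 and COL4A2 are the pair shown above by its shared start region. In the TIAR RIP with arsenite COL4A1 differed from input by 0.04 ± 0.07, which was not called, and COL4A2 was lower, at -0.27 ± 0.08. Whether these genes differed from each other was not tested. In the G3BP1 RIP with arsenite both were higher than in input, by 0.74 ± 0.07 and 1.18 ± 0.08. The input call of COL4A5 rests on few arrays, since it was lost on leaving out any of 8 of the 18 arrays in turn, with an adjusted p of 0.20 without replicate 3 of input with DMSO (limma). Of 4 type VI collagen genes, 3 were higher in the G3BP1 RIP with arsenite than in input. COL6A1 and COL6A2, again neighbours, lay apart in the TIAR RIP against input, at 0.33 ± 0.07 and -0.54 ± 0.07 with arsenite. With DMSO they were at 0.35 ± 0.07 and -0.52 ± 0.07, and no arsenite change of either gene was called. The G3BP1 difference of COL6A2, 0.31 ± 0.07, turned to -0.09 under quantile normalization.

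COL14A1, a FACIT collagen that binds the surface of fibrils, was the one of 9 such genes called for arsenite in any RNA sample. Its signals were 9.66, 9.09 and 9.28 in TIAR RIPs with arsenite, against 8.35, 8.34 and 8.04 in TIAR RIPs with DMSO. In G3BP1 RIPs they were 10.49, 10.52 and 10.47 with arsenite, against 9.56, 9.48 and 8.94 with DMSO. Input gave 8.18, 8.80 and 8.74 with arsenite, against 7.96, 7.91 and 8.06 with DMSO. Arsenite arrays lay above DMSO arrays in each RNA sample, and replicate 1 of input with arsenite was the lowest of its group. COL14A1 rose by 1.10 ± 0.19 in the TIAR RIP, at an adjusted p of 0.00111 (limma), by 1.17 ± 0.19 in the G3BP1 RIP, at 0.000659, and by 0.60 ± 0.19 in input, at 0.0455. The input call was lost on leaving out any of 11 of the 18 arrays in turn, and without replicate 2 of input with arsenite the adjusted p was 0.15. Against input with arsenite, COL14A1 was higher by 1.92 ± 0.19 in the G3BP1 RIP and by 0.77 ± 0.19 in the TIAR RIP.

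Of 3 transmembrane collagen genes, COL23A1 was the one called. Its signals were 8.28, 8.35 and 8.24 in TIAR RIPs with arsenite and 8.14, 8.35 and 8.23 in G3BP1 RIPs with arsenite, against 8.60, 8.52 and 8.45 in input with arsenite. Each RIP array lay below each input array. The differences from input were small, -0.23 ± 0.09 in the TIAR RIP and -0.29 ± 0.09 in the G3BP1 RIP (SE), and the second was lost without replicate 1 of input with arsenite or without replicate 1 of the G3BP1 RIP with arsenite, where the adjusted p reached 0.081 (limma).

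Laminins are trimers of an alpha, a beta and a gamma chain that start basement membrane assembly. Of the 9 chains measured, 6, LAMA1, LAMA4, LAMA5, LAMB1, LAMB2 and LAMC1, rose in the TIAR RIP with arsenite. All of these but LAMA4 also rose in the G3BP1 RIP, and LAMA5, LAMB1 and LAMB2 rose in input. Against input with arsenite, 6 chains were higher in the G3BP1 RIP, and in the TIAR RIP 2 were higher, LAMA1 and LAMC1, and 2 lower, LAMA5 and LAMB2. The comparison of the TIAR RIP with the G3BP1 RIP, which uses the same RIP arrays, had 6 chains lower with arsenite. LAMA2, LAMB4 and LAMC3 were never called.

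LAMA1 encodes an alpha chain. Its signals were 8.31, 8.22 and 8.34 in TIAR RIPs with arsenite, against 7.28, 7.14 and 7.15 in TIAR RIPs with DMSO. G3BP1 RIPs gave 10.00, 9.90 and 9.99 with arsenite, against 9.16, 9.05 and 8.40 with DMSO, where replicate 3 was the low one. In input the values were 7.56, 7.73 and 7.83 with arsenite, against 7.49, 7.43 and 7.40 with DMSO. The groups did not overlap in any of the 3 RNA samples, and the input gap was the narrowest. LAMA1 rose by 1.10 ± 0.15 in the TIAR RIP (2.14-fold, limma adjusted p = 0.000177) and, in the G3BP1 RIP, by 1.09 ± 0.15 at an adjusted p of 0.000162, whereas the input difference of 0.26 ± 0.15 was not called. Against input with arsenite it was 4.79-fold higher in the G3BP1 RIP and 1.502-fold higher in the TIAR RIP.

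LAMB1 encodes a beta chain and had the largest called change of any member in the TIAR RIP with arsenite. TIAR RIPs held 10.09, 9.95 and 9.93 with arsenite, against 8.88, 8.82 and 8.57 with DMSO. Signals in G3BP1 RIPs were 11.35, 11.39 and 11.31 with arsenite, against 10.82, 10.68 and 10.46 with DMSO. In input they were 9.45, 9.97 and 9.95 with arsenite, against 9.15, 9.19 and 9.17 with DMSO. Every arsenite array was above every DMSO array within each RNA sample. The changes were 1.23 ± 0.13 in the TIAR RIP (limma adjusted p = 2.67e-05), 0.70 ± 0.13 in the G3BP1 RIP and 0.62 ± 0.13 in input. The TIAR RIP with DMSO was below input with DMSO, at -0.42 ± 0.13, while the difference with arsenite, 0.20 ± 0.13, was not called. The DMSO call was lost with median centring, at -0.25 and an adjusted p of 0.054 (limma), and without replicate 3 of the TIAR RIP or replicate 2 of input with DMSO.

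LAMB2 encodes another beta chain and parted the 2 RIPs more than any other member with arsenite. Its signals were 8.29, 8.40 and 8.18 in TIAR RIPs with arsenite, against 7.90, 8.02 and 7.97 with DMSO. They were 10.27, 10.39 and 10.31 in G3BP1 RIPs with arsenite, against 9.58, 9.50 and 9.18 with DMSO. They were 8.77, 8.91 and 8.91 in input with arsenite, against 8.27, 8.36 and 8.31 with DMSO. Input thus lay between the RIPs with either treatment on the deposited scale. With DMSO the TIAR difference from input, -0.35 ± 0.10, was not called with median centring, at -0.18 and an adjusted p of 0.077, or with quantile normalization, at -0.15 and an adjusted p of 0.19 (limma). LAMB2 was lower in the TIAR RIP with arsenite than in the G3BP1 RIP, at -2.03 ± 0.10 (4.10-fold, limma adjusted p = 5.66e-10), and its arsenite change was 0.32 ± 0.10 in the TIAR RIP, 0.90 ± 0.10 in the G3BP1 RIP and 0.55 ± 0.10 in input. LAMA5, an alpha chain, lay the same way, at 9.06 ± 0.09 in TIAR RIPs, 10.80 ± 0.03 in G3BP1 RIPs and 9.51 ± 0.04 in input with arsenite (SD, n = 3).

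LAMA4 averaged 8.70 ± 0.24 in TIAR RIPs, 10.37 ± 0.04 in G3BP1 RIPs and 8.32 ± 0.45 in input with arsenite (SD, n = 3). The gamma chain LAMC1 averaged 10.54 ± 0.16, 11.60 ± 0.01 and 10.04 ± 0.36 in the same groups. Both rose in the TIAR RIP with arsenite, LAMA4 by 0.99 ± 0.20 and LAMC1 by 0.69 ± 0.15. In input with arsenite replicate 1 was the lowest for both, and neither input difference was called.

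**Figure D4:**
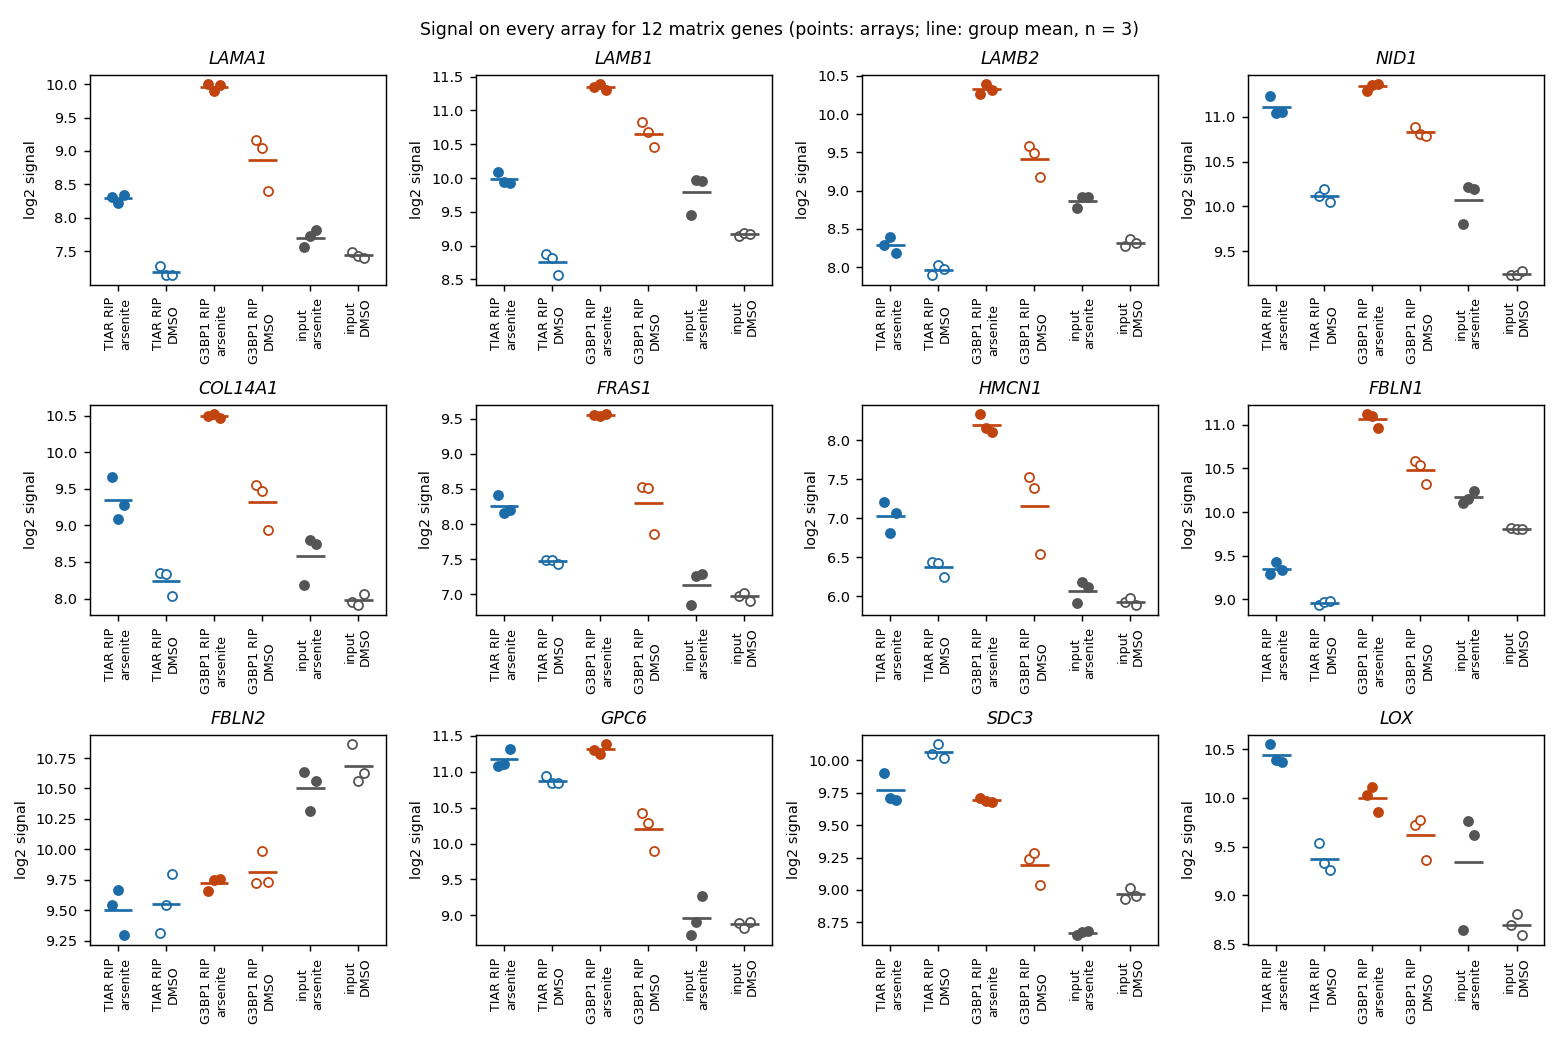
Log2 signal (vertical axes) on each of the 18 arrays for 12 members, in the 6 groups (horizontal axes). Points are arrays, filled with arsenite and open with DMSO, and lines are means of 3 arrays. Laminin chains, NID1, COL14A1 and FBLN1 stand highest in the arsenite G3BP1 RIP, FBLN2 stands lowest in the RIPs, and SDC3 with arsenite is lower than with DMSO in the TIAR RIP and input and higher in the G3BP1 RIP.

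The nidogens NID1 and NID2 link laminin to type IV collagen. NID1 signals were 11.24, 11.04 and 11.05 in TIAR RIPs with arsenite, against 10.12, 10.19 and 10.05 with DMSO. G3BP1 RIPs gave 11.29, 11.36 and 11.37 with arsenite, against 10.88, 10.81 and 10.79 with DMSO. In input they were 9.81, 10.22 and 10.19 with arsenite, against 9.24, 9.23 and 9.28 with DMSO. Both RIPs lay above input of the same treatment and arsenite above DMSO within each RNA sample, with no overlap. NID1 rose by 0.99 ± 0.10 in the TIAR RIP (limma adjusted p = 1.43e-05), by 0.51 ± 0.10 in the G3BP1 RIP and by 0.82 ± 0.10 in input (adjusted p = 8.94e-05). With arsenite it was 2.05-fold higher in the TIAR RIP and 2.41-fold higher in the G3BP1 RIP than in input. NID2 rose in the G3BP1 RIP, by 0.27 ± 0.08, and its differences in the TIAR RIP, 0.16 ± 0.08, and input, 0.04 ± 0.08, were not called.

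Of 7 fibulin and hemicentin genes, whose products join basement membranes and elastic fibres, 3 rose with arsenite in each RIP. FBLN1, the fibulin that binds nidogen and fibronectin, had signals of 9.29, 9.42 and 9.33 in TIAR RIPs with arsenite, against 8.93, 8.97 and 8.98 with DMSO. In G3BP1 RIPs they were 11.12, 11.10 and 10.97 with arsenite, against 10.58, 10.54 and 10.32 with DMSO. Input gave 10.10, 10.15 and 10.25 with arsenite, against 9.81, 9.81 and 9.80 with DMSO. The 3 RNA samples formed separate bands, with the TIAR RIP lowest and the G3BP1 RIP highest. FBLN1 was lower in the TIAR RIP with arsenite than in input, at -0.82 ± 0.08, and higher in the G3BP1 RIP, at 0.90 ± 0.08, and it rose with arsenite in all 3, by 0.39 ± 0.08 in the TIAR RIP, 0.58 ± 0.08 in the G3BP1 RIP and 0.36 ± 0.08 in input. The TIAR RIP with arsenite was below the G3BP1 RIP, at -1.72 ± 0.08 (limma adjusted p = 4.43e-10).

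FBLN2, its paralogue, was low in both RIPs. Signals were 9.54, 9.67 and 9.29 in TIAR RIPs and 9.66, 9.75 and 9.75 in G3BP1 RIPs with arsenite, against 10.63, 10.31 and 10.56 in input with arsenite. With DMSO they were 9.31, 9.54 and 9.80 in TIAR RIPs and 9.72, 9.99 and 9.73 in G3BP1 RIPs, against 10.86, 10.56 and 10.63 in input. Each RIP array lay below each input array of its treatment. The difference from input with arsenite was -1.001 ± 0.14 in the TIAR RIP (limma adjusted p = 2.42e-05) and -0.78 ± 0.14 in the G3BP1 RIP, and no arsenite change of FBLN2 was called.

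HMCN1 encodes hemicentin, a very large matrix protein, and is one of the dimmer members. It gave 7.21, 6.81 and 7.06 in TIAR RIPs with arsenite, against 6.43, 6.43 and 6.24 with DMSO. G3BP1 RIPs gave 8.33, 8.16 and 8.11 with arsenite, against 7.52, 7.38 and 6.55 with DMSO, with replicate 3 far below the others. Input gave 5.90, 6.18 and 6.12 with arsenite, against 5.93, 5.97 and 5.88 with DMSO, and these overlapped. HMCN1 rose by 1.05 ± 0.19 in the G3BP1 RIP (limma adjusted p = 0.00164) and by 0.66 ± 0.19 in the TIAR RIP, and the input difference, 0.14 ± 0.19, was not called. The G3BP1 call was lost in a fit on the G3BP1 RIP arrays alone, at an adjusted p of 0.079 (limma). EFEMP1, a secreted fibulin found in gliomas, averaged 13.04 ± 0.09 in TIAR RIPs, 13.33 ± 0.02 in G3BP1 RIPs and 12.85 ± 0.13 in input with arsenite (SD, n = 3), and rose by 0.69 ± 0.08, 0.29 ± 0.08 and 0.42 ± 0.08 in those RNA samples.

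FRAS1, FREM1 and FREM2 encode proteins of a complex that holds epithelium to the tissue below it. FRAS1 signals were 8.41, 8.15 and 8.20 in TIAR RIPs with arsenite, against 7.49, 7.49 and 7.44 with DMSO. They were 9.55, 9.53 and 9.56 in G3BP1 RIPs with arsenite, against 8.53, 8.51 and 7.86 with DMSO. Input had 6.85, 7.26 and 7.28 with arsenite, against 6.98, 7.02 and 6.91 with DMSO. Arsenite and DMSO arrays were apart in both RIPs and overlapped in input, where replicate 1 with arsenite was the lowest. FRAS1 rose by 0.78 ± 0.15 in the TIAR RIP, at an adjusted p of 0.00313 (limma), and by 1.25 ± 0.15 in the G3BP1 RIP, at 8.18e-05, and the input difference of 0.16 ± 0.15 was not called. With arsenite FRAS1 was 5.34-fold higher in the G3BP1 RIP than in input, the largest called G3BP1 difference of any member, and 2.18-fold higher in the TIAR RIP. FREM2 rose by 0.89 ± 0.15 in the TIAR RIP and 0.93 ± 0.15 in the G3BP1 RIP, and FREM1 was never called.

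Of 3 matrilins, adaptor proteins between matrix filaments, MATN2 was the one called. With arsenite it averaged 7.88 ± 0.02 in TIAR RIPs, 9.77 ± 0.08 in G3BP1 RIPs and 7.83 ± 0.17 in input (SD, n = 3). It was 3.85-fold higher in the G3BP1 RIP than in input, and the TIAR difference from input, 0.05 ± 0.13, was not called. MATN3 and MATN4 were never called.

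The emilins EMILIN1 and EMILIN2, glycoproteins of elastic fibres, ran the other way against input with arsenite. With DMSO neither was called against input in either RIP, and EMILIN1 was not called in the TIAR RIP with arsenite. EMILIN2 signals were 9.98, 10.67 and 10.24 in TIAR RIPs and 9.97, 10.33 and 10.40 in G3BP1 RIPs with arsenite, against 11.40, 10.92 and 10.83 in input with arsenite. Each RIP array lay below each input array, and replicate 1 of the input was the highest. The differences from input were -0.76 ± 0.22 in the TIAR RIP and -0.82 ± 0.22 in the G3BP1 RIP (SE). The TIAR call was lost without replicate 1 of the TIAR RIP with arsenite or without replicate 1 of input with arsenite, at -0.58 to -0.94 over all arrays left out in turn and an adjusted p up to 0.060 (limma). EMILIN1 signals were 8.12, 8.29 and 8.25 in G3BP1 RIPs with arsenite, against 8.73, 8.46 and 8.40 in input with arsenite. Those groups did not overlap and differed by -0.31 ± 0.10, and the call was lost without replicate 1 of either group, with an adjusted p of 0.12 without that of input.

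Glypicans are heparan sulfate proteoglycans tied to the membrane by a lipid anchor, and GPC4 and GPC6 are known in rodents as astrocyte factors that promote synapse formation. GPC6 signals were 11.08, 11.11 and 11.32 in TIAR RIPs with arsenite, against 10.94, 10.84 and 10.84 with DMSO. In G3BP1 RIPs they were 11.30, 11.25 and 11.38 with arsenite, against 10.42, 10.29 and 9.90 with DMSO. Input held 8.72, 8.91 and 9.27 with arsenite, against 8.89, 8.82 and 8.90 with DMSO. Every RIP array was above every input array, and the input groups overlapped. With arsenite GPC6 was 4.61-fold higher in the TIAR RIP than in input, at an adjusted p of 1.98e-08 (limma), and 5.08-fold higher in the G3BP1 RIP, at 8.06e-09. Its arsenite change was 1.11 ± 0.14 in the G3BP1 RIP, while 0.30 ± 0.14 in the TIAR RIP and 0.09 ± 0.14 in input were not called.

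GPC4 behaved otherwise with arsenite. TIAR RIPs gave 10.76, 10.75 and 10.84 with arsenite, against 10.12, 9.92 and 9.87 with DMSO. G3BP1 RIPs gave 10.83, 10.71 and 10.67 with arsenite, against 10.55, 10.43 and 10.07 with DMSO. Input values were 9.80, 10.18 and 10.18 with arsenite, against 9.41, 9.28 and 9.25 with DMSO. No arsenite array overlapped a DMSO array in any RNA sample. GPC4 rose by 0.82 ± 0.13 in the TIAR RIP and 0.74 ± 0.13 in input (limma adjusted p = 0.00128), and the G3BP1 difference of 0.39 ± 0.13 was not called. It was higher than input with arsenite in both RIPs, by 0.73 ± 0.13 in the TIAR RIP and 0.68 ± 0.13 in the G3BP1 RIP. GPC2 was never called, and GPC3 and GPC5 were called in 1 comparison each, both lower in the TIAR RIP than in the G3BP1 RIP.

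Syndecans are transmembrane heparan sulfate proteoglycans, and the 4 genes differed among themselves. SDC3, the syndecan of nervous tissue, had signals of 9.90, 9.70 and 9.69 in TIAR RIPs with arsenite, against 10.04, 10.12 and 10.01 with DMSO. In G3BP1 RIPs they were 9.71, 9.69 and 9.68 with arsenite, against 9.24, 9.29 and 9.04 with DMSO. In input they were 8.65, 8.67 and 8.68 with arsenite, against 8.93, 9.02 and 8.95 with DMSO. Arsenite arrays lay below DMSO arrays in the TIAR RIP and in input and above them in the G3BP1 RIP, with no overlap in any of the 3. SDC3 fell by 0.29 on the log2 scale in the TIAR RIP (SE 0.08, limma adjusted p = 0.0227) and by 0.30 in input, with an SE of 0.08 and an adjusted p of 0.0189. It rose by 0.50 ± 0.08 in the G3BP1 RIP, at an adjusted p of 0.000552. The TIAR fall was lost without any of 4 arrays and the input fall without either of 2. They also depend on scaling, since the input difference was -0.20 with median centring and -0.11 with quantile normalization, at adjusted p of 0.074 and 0.48, and the TIAR difference was -0.26 with an adjusted p of 0.081 under quantile normalization. With arsenite SDC3 was 2.14-fold higher in the TIAR RIP and 2.03-fold higher in the G3BP1 RIP than in input.

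SDC1 and SDC4 rose with arsenite in the G3BP1 RIP, by 0.86 ± 0.17 and 0.74 ± 0.12, and neither was called in the TIAR RIP or input. SDC1 averaged 10.62 ± 0.10 in G3BP1 RIPs with arsenite and 9.76 ± 0.44 in G3BP1 RIPs with DMSO (SD, n = 3), where replicate 3 was low. SDC2 rose in the TIAR RIP, by 0.44 ± 0.12, and was higher in both RIPs than in input with arsenite, by 0.39 ± 0.12 in the TIAR RIP and 0.65 ± 0.12 in the G3BP1 RIP.

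Lysyl oxidases cross-link collagen and elastin outside the cell. LOX signals were 10.55, 10.39 and 10.37 in TIAR RIPs with arsenite, against 9.54, 9.34 and 9.26 with DMSO. G3BP1 RIPs had 10.03, 10.11 and 9.85 with arsenite, against 9.72, 9.78 and 9.36 with DMSO. In input they were 8.65, 9.76 and 9.62 with arsenite, against 8.70, 8.81 and 8.59 with DMSO. The input groups overlapped since replicate 1 with arsenite lay far below the others of its group, at the level of DMSO. LOX rose by 1.06 ± 0.22 in the TIAR RIP (limma adjusted p = 0.00406), and the input difference of 0.64 ± 0.22 was not called (adjusted p = 0.0630). With both arrays that stood apart left out, the input difference was 0.99 ± 0.10 with an adjusted p of 4.72e-05. LOXL1 rose in the G3BP1 RIP, by 0.55 ± 0.09, while its differences in the TIAR RIP, -0.22 ± 0.09, and input, -0.16 ± 0.09, were negative and not called.

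Whether the arsenite change differed between RNA samples was tested as a difference of differences. In the G3BP1 RIP against input, 7 members had a more positive change and 1 a more negative one, beside 14.3% and 2.65% of all transcript clusters, so the share of members, 9.21% more positive, was below that of all transcript clusters. The 7 were FRAS1, GPC6, HMCN1, LAMA1, SDC3, LOXL1 and LAMA5, with differences between 0.56 and 1.09. LAMA5 was not called under quantile normalization, at 0.33 and an adjusted p of 0.295 (limma), and the HMCN1 call was lost on leaving out any of 6 of the 18 arrays in turn. COL1A1 was the negative one at -0.31 ± 0.10, a call lost on leaving out any of 15 of the 18 arrays in turn. Quantile normalization gave 7 more positive and 5 more negative members, as did leaving out both arrays that stood apart, and median centring gave 8 and 3. Without those arrays HMCN1 had a difference of 0.52 ± 0.15, against 0.91 ± 0.27 with them. In the TIAR RIP against input, limma called 0 members, beside 0.604% of all transcript clusters called more positive and 0.05% more negative, and 6 members had an unadjusted p under 0.05. With both arrays that stood apart left out, 3 were called, LAMA1 at 0.76 ± 0.09, LAMA4 at 0.68 ± 0.15 and FRAS1 at 0.48 ± 0.10. For the counts under these other settings, shares of all transcript clusters are not given here.

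Between the RIPs, the TIAR change was more positive than the G3BP1 change for 2 members and more negative for 6, beside 5.05% and 8.55% of all transcript clusters. NID1, at 0.48 ± 0.14, and EFEMP1, at 0.40 ± 0.11, were more positive in the TIAR RIP, and each call was lost on leaving out any of 8 of the 18 arrays in turn, with adjusted p up to 0.089 and 0.068 (limma). GPC6, SDC3, LOXL1, SDC4, LAMB2 and LAMA5 were more negative there, between -0.81 and -0.58. Median centring gave 4 more positive and 7 more negative members, quantile normalization 4 and 6, and leaving out both arrays that stood apart 10 and 6. For these counts too, shares of all transcript clusters are not given here. The SDC4 call was lost without any of 3 arrays, and that of LAMA5 under quantile normalization, at an adjusted p of 0.058. These comparisons share arrays, so a gene called in both counts the same G3BP1 arrays in each.

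**Figure D5:**
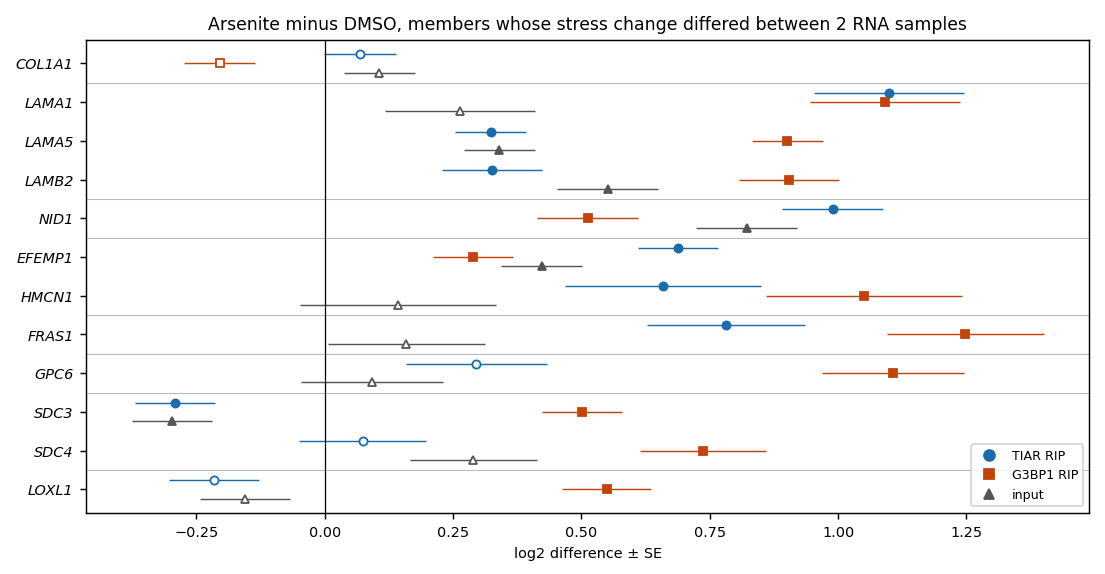
Log2 difference of arsenite minus DMSO with its standard error (horizontal axis) in the TIAR RIP (circles), the G3BP1 RIP (squares) and input (triangles) for the 12 members whose change differed between RNA samples (vertical axis). Filled symbols were called. SDC3 and LOXL1 lie left of 0 in the TIAR RIP and input and near 0.5 in the G3BP1 RIP.

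Of 32 listed genes that fold, modify and export collagen, 26 were on the array with a single symbol. With arsenite 9 rose in the TIAR RIP, 11 rose in the G3BP1 RIP, and in input 5 rose and 2 fell, with medians of 0.16, 0.31 and 0.08. These are 34.6%, 42.3% and, in input, 19.2% higher and 7.69% lower, beside the 6.15%, 10.4% and, in input, 2.52% and 11.2% of all transcript clusters. The lysyl hydroxylase PLOD3 rose in all 3, by 1.07 ± 0.13 in the TIAR RIP, 1.003 ± 0.13 in the G3BP1 RIP and 0.70 ± 0.13 in input (SE), and so did the prolyl isomerase FKBP10, by 1.13 ± 0.10, 0.79 ± 0.10 and 0.66 ± 0.10. SERPINH1, the collagen chaperone, rose by 0.70 ± 0.11 in input. SEC23A, a coat protein of vesicles that leave the endoplasmic reticulum, fell in input, at -0.53 ± 0.12. Against input with arsenite, 13 of the 26 were higher in the G3BP1 RIP, led by PLOD3 at 1.52 ± 0.13, and in the TIAR RIP 7 were higher, led by the coat protein SEC24D at 1.99 ± 0.17, and 10 lower, led by the metalloprotease BMP1 at -0.96 ± 0.14. The shares are 50% in the G3BP1 RIP, beside 29.3% of all transcript clusters, and 26.9% higher and 38.5% lower in the TIAR RIP, beside 20.3% and 23.5%. Of all transcript clusters above the median signal, 46.8% were higher in the G3BP1 RIP. In the TIAR RIP 33.6% of those were higher and 33.3% lower. The list was not split by signal, so its shares are not shown to differ from those at like signal.

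Of 20 listed matrix receptor genes, 17 were measured. With arsenite 9 rose in the TIAR RIP, 7 in the G3BP1 RIP and 4 in input, with medians of 0.37, 0.33 and 0.19. These are 52.9%, 41.2% and 23.5% of the list, beside 6.15%, 10.4% and 2.52% of all transcript clusters called higher. The collagen receptor chain ITGA2 rose by 1.53 ± 0.23 in the TIAR RIP and 0.92 ± 0.23 in input, and the laminin receptor chain ITGB4 by 1.08 ± 0.08 in the TIAR RIP, 0.59 ± 0.08 in the G3BP1 RIP and 0.78 ± 0.08 in input. With arsenite ITGA2 differed from input by 1.68 ± 0.23 in the TIAR RIP and 1.49 ± 0.23 in the G3BP1 RIP (SE). The counts against input with arsenite were 6 higher and 4 lower in the TIAR RIP and 12 higher in the G3BP1 RIP. The 35.3% higher and 23.5% lower in the TIAR RIP stand beside 20.3% and 23.5% of all transcript clusters, and the 70.6% higher in the G3BP1 RIP beside 29.3%. Among all transcript clusters above the median signal those shares were 33.6%, 33.3% and 46.8%, and this list was not split by signal either.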

How the data were processed

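RNA from TIAR RIPs, G3BP1 RIPs and input of U251-MG cells was hybridised to 18 exon arrays, 3 for each of 6 groups. The deposited values are log2 signals per transcript cluster, summarised by the authors with RMA in Affymetrix Expression Console, per the submitters' processing notes, with no version stated in those sources. Gene symbols came from the platform annotation, where 14432 of 22011 transcript clusters had 1 symbol, 2408 several and 5171 none, and no member was named from a shared one. Group means were fitted across all arrays with limma 3.58.1 in R 4.3.3 (lmFit, eBayes), on values used as deposited and after a check on simulated data. P-values were adjusted by Benjamini-Hochberg over all transcript clusters in each of 12 comparisons and called at 0.05. With 3 arrays per group, their number limits the precision, and probe positions were not used.

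The members, roles and gene lists were chosen with earlier results of these data known. Up to 8 called members per comparison and direction, by size of difference, were to be named, with values of each array for the top 4 of the main comparisons. Others are named to complete a role and were chosen after their values were seen. Alternatives were a replicate block, fits on the compared groups, a robust prior with an intensity trend, weighted arrays, median centring, quantile normalization, leaving out the dimmer 50% of transcript clusters, leaving out both arrays that stood apart, and leaving out each array in turn. Arrays with the same replicate number did not deviate together, with correlations from -0.41 to 0.42 over 45 pairs and 14 of them above 0.1, so the numbers were not taken as pairs.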

Additional observations from a re-analysis of the deposited data

Results flagged for a closer look

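The arsenite change of 12 members differed between RNA samples by a test of the difference itself (limma, adjusted over all transcript clusters), in 16 results. In the G3BP1 RIP relative to input it was more positive for FRAS1 by 1.09, for GPC6 by 1.01, for HMCN1 by 0.91, for LAMA1 by 0.83, for SDC3 by 0.80, for LOXL1 by 0.70 and for LAMA5 by 0.56, and it was more negative for COL1A1, at -0.31. In the TIAR RIP relative to the G3BP1 RIP it was more positive for NID1 by 0.48 and for EFEMP1 by 0.40. It was more negative there for GPC6, at -0.81, SDC3, at -0.79, LOXL1, at -0.77, SDC4, at -0.66, LAMB2, at -0.58, and LAMA5, at -0.58. Each test called 10.5% of the members, a smaller share than over all transcript clusters. For the G3BP1 RIP relative to input, 16.9% of all transcript clusters were called. For the TIAR RIP relative to the G3BP1 RIP, 13.6% were.

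Both tests use the G3BP1 arrays, so the results for GPC6, SDC3, LOXL1 and LAMA5 in each are not separate observations. Replicate 3 of the G3BP1 RIP with DMSO was the lowest of its group for FRAS1, GPC6, HMCN1, LAMA1, SDC3, SDC4, LAMB2, LOXL1 and, by a narrow margin, NID1. With that array and replicate 1 of input with arsenite left out, the G3BP1 difference from input was 0.73 ± 0.10 for FRAS1, 0.74 ± 0.14 for GPC6 and 0.52 ± 0.10 for LAMA1 (SE).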

How the results depend on the processing

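Of 117 differences of named members, checked 3031 times in all, 2873 stayed called in the same direction, 158 kept their direction but were no longer called, and 0 changed sign. Most of these checks could not change a sign. The block, the compared groups, the robust prior and the dimmer clusters left out keep the difference itself, as does leaving out an array of another group. The named members were also picked as the largest called differences, so the lack of sign changes says little. Among other called differences, quantile normalization turned COL6A2 in the G3BP1 RIP against input with arsenite and COL9A3 in the TIAR RIP against the G3BP1 RIP with DMSO, to -0.09 and 0.05, with adjusted p of 0.571 and 0.871 (limma). Fits on the compared groups alone called fewer members for arsenite in the G3BP1 RIP (11) and in input (5) and for the TIAR RIP against input with arsenite (18). In input with arsenite 23 were called with median centring, 23 with quantile normalization, 27 with array weights and 26 without the arrays that stood apart. Array weights called 38 members in the TIAR RIP against input with DMSO and, for the difference of arsenite changes, 16 in the G3BP1 RIP relative to input and 17 in the TIAR RIP relative to the G3BP1 RIP, where 16 were called without the arrays that stood apart. For the TIAR RIP relative to input, which had 0 calls and 6 at an unadjusted p under 0.05, the count was 1 on the compared groups, with median centring, with quantile normalization or without the dimmer 50% of transcript clusters, 4 with array weights and 3 without the arrays that stood apart. The cause of these shifts was not tested, and shares of all transcript clusters under these settings are not given here. The replicate block gave 21, 19 and 10 calls for arsenite in the TIAR RIP, the G3BP1 RIP and input, and 25, 17, 41, 37, 34, 35, 0, 7 and 7 in the others. It ended the calls of COL14A1 (adjusted p = 0.066) and COL4A5 (0.056) in input, of COL1A1 (0.062) in the G3BP1 RIP relative to input and of NID1 (0.054) in the TIAR RIP relative to the G3BP1 RIP, and that of LAMA4, SDC4, COL9A1 and COL19A1 in 1 comparison each.

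Leaving out each array in turn gave 15 to 25 calls for arsenite in the TIAR RIP, 17 to 27 in the G3BP1 RIP and 9 to 20 in input, the lowest without replicate 3 of input with DMSO. The TIAR RIP against input had 19 to 33 with arsenite and 11 to 26 with DMSO, with 11 without replicate 3 and 12 without replicate 2 of input with DMSO. The G3BP1 RIP against input had 37 to 46 with arsenite and 34 to 39 with DMSO, and the TIAR RIP against the G3BP1 RIP had 33 to 38 and 32 to 39. For the differences of arsenite changes the ranges were 0 to 2 for the TIAR RIP relative to input, with 2 without replicate 3 of the G3BP1 RIP with DMSO, 6 to 11 for the G3BP1 RIP relative to input, and 5 to 11 for the TIAR RIP relative to the G3BP1 RIP, with 5 without replicate 1 of the TIAR RIP or replicate 2 of the G3BP1 RIP with arsenite. Median centring moved the median of all transcript clusters by 0.17 in the TIAR RIP against input with DMSO, by -0.17 in the G3BP1 RIP against input with arsenite, and by 0.23 and 0.19 in the TIAR RIP against the G3BP1 RIP with arsenite and DMSO. Signal over array background was not measured here.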

Other observations

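RefSeq places 9 pairs of members next to each other on a chromosome, among them COL6A1 and COL6A2 on chromosome 21, COL4A1 and COL4A2 on chromosome 13, COL3A1 and COL5A2 on chromosome 2, and GPC4 and GPC3 on chromosome X. Against input with arsenite, COL5A2, a chain of type V collagen, differed by 0.90 ± 0.11 in the G3BP1 RIP, whereas COL3A1, the chain of type III collagen, differed by -0.21 ± 0.09, which was not called (SE). COL3A1 averaged 6.79 ± 0.05 in G3BP1 RIPs with arsenite and 7.002 ± 0.03 in input with arsenite (SD, n = 3), so it was dim in both. GPC4 rose in input with arsenite by 0.74 ± 0.13, and its neighbour GPC3 differed by 0.00 ± 0.08 at a low signal of 6.01 ± 0.16.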
